A study of Mus musculus with 7 samples.

Results

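The genes of the red cell membrane and of the protein skeleton beneath it were followed in 7 fetal mouse livers that differ in Taf10, which encodes a subunit of TFIID and of the SAGA coactivator complex. The list held 29 genes for the band 3 and ankyrin complexes, the spectrin skeleton, blood group antigens and membrane transport, and it was drawn up by function with earlier results of these data known. Each gene matched 1 of the 39017 gene identifiers counted. After the filter on low counts 28 members were tested. Icam4, the Landsteiner-Wiener blood group protein, was listed at 0 counts in all 7 libraries and was not tested. Whether the counting could assign reads to Icam4 is not given in the sources used here, so its 0 is not a measure of expression.

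The livers came from C57BL/6 embryos at stage E12.5, 1 liver per library, as RNA from single-cell suspensions of the whole organ. The 2 TAF10KO livers are titled lox/lox with EpoCre, while the series text writes the genotype as TAF10lox/KO:EpoR-Cre+/-, with the Cre recombinase expressed from Epor, the gene of the erythropoietin receptor. The 3 TAF10HET livers also carried EpoCre: replicate 1 was lox/wt, and replicates 2 and 3 were wt/ko. The 2 WT livers were lox/lox and Cre-negative, so that in a comparison with WT the effect of Cre and the effect of the Taf10 alleles cannot be told apart. The Cre is meant to act in erythroid cells, and the other cells of the liver contribute to every value. Each title also holds a code in the form of a date. The second code covers TAF10KO replicate 2, TAF10HET replicates 2 and 3 and WT replicate 2, and the first covers replicate 1 of each group, so the type of TAF10HET allele cannot be told apart from the date code.

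Gene counts totalled 18008391 to 43401474 per library, of which the 29 members took 1.18% to 2.07%. The first principal component of all genes held 63.2% of the variance and separated the libraries by date code. By Xist, TAF10KO replicate 2 and TAF10HET replicate 1 were male and the other 5 embryos female; Xk and Mpp1 are the members on the X chromosome. Taf10 itself stood at 37.8 and 43.8 CPM, counts scaled to a common library total, in TAF10KO livers and at 78.1, 63.7 and 63.0 CPM in TAF10HET livers, against 72.0 and 96.5 CPM in WT livers. All values in TAF10KO livers were below all others. The fitted log2 difference was -1.04 in TAF10KO against WT (SE 0.168, adjusted p = 0.0542) and -0.31 in TAF10HET against WT (SE 0.152, adjusted p = 0.999), by edgeR's quasi-likelihood test with Benjamini-Hochberg adjustment over 15800 genes and the date code as a block.

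The red cell membrane is held in shape by a mesh of spectrin tetramers tied to short actin filaments. The mesh is anchored to the lipid bilayer at ankyrin complexes, built around the anion exchanger band 3, and at junctional complexes, built around protein 4.1, glycophorin C and adducin. Erythroblasts make these proteins in large amounts as they mature, in the fetal liver as in the adult bone marrow, and inherited defects of band 3, ankyrin, spectrin or protein 4.2 cause hereditary spherocytosis in humans. The erythroid factor GATA1 binds motifs with a GATA core, and KLF1 binds motifs with a CACCC core.

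Promoter sequences were read from RefSeq (build GRCm38.p6) as the 250 bases before each annotated start. They were found for 23 of the 29 members. Slc4a1, Gypc, Ank1, Dmtn, Slc14a1 and Cd24a had no entry in the promoter table. Both strands were searched for each motif. The GATA motif was AGATAA, read as TTATCT on the other strand. The KLF motif was CACCC, read as GGGTG there. The third was TATAAA, read as TTTATA there, the core of the TATA box that TFIID binds. AGATAA was present in 7 of 23 members (30.4%) and in 11.4% of 27025 genes, and the 7 were Epb42, Rhd, Kel, Icam4, Mpp1, Tpm3 and Slc29a1. CACCC was present in 19 of 23 members (82.6%) and in 54.5% of genes. TATAAA was present in 3 of 23 members (13.0%), Epb42, Ermap and Piezo1, and in 14.3% of genes. A gene with several starts, up to 8, was counted once if any of its windows held the motif. These shares describe letters in a window and were not tested.

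The windows printed here belong to 4 members and 2 genes outside the list. Kel and Rhd are abundant members that hold both AGATAA and CACCC, Aqp1 had the lowest difference of the list in TAF10KO livers, and Bcam was the 1 member called lower in the second date code. Ackr1 and Art4 are blood group genes outside the list that were called lower in TAF10KO livers. Capitals mark AGATAA and CACCC, or GGGTG where CACCC lies on the other strand, and no match overlapped another. Kel is on the minus strand at chr6:41704326-41704575, Rhd on the plus strand at chr4:134864286-134864535, Aqp1 on the plus strand at chr6:55336049-55336298, Bcam on the minus strand at chr7:19770533-19770782, Ackr1 on the minus strand at chr1:173333504-173333753, and Art4 on the minus strand at chr6:136857601-136857850.
Kel: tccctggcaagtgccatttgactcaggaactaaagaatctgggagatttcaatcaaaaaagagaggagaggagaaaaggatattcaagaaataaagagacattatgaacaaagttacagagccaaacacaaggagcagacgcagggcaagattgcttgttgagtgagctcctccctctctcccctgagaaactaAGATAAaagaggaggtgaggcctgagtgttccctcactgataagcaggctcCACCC
Rhd: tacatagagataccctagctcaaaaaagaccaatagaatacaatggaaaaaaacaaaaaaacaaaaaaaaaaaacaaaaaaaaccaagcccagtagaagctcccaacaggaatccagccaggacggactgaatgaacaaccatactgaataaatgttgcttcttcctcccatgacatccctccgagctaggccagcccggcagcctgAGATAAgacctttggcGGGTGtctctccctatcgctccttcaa
Aqp1: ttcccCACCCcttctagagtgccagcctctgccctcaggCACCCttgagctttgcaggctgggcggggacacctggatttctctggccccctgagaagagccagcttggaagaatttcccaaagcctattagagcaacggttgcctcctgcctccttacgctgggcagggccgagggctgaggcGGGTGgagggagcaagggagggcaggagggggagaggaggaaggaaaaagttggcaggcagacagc
Bcam: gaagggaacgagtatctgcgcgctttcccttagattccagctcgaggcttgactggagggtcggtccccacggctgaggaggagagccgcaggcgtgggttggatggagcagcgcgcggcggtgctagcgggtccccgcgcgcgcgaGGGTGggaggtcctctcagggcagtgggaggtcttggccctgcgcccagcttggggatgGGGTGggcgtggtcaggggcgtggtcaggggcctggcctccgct
Ackr1: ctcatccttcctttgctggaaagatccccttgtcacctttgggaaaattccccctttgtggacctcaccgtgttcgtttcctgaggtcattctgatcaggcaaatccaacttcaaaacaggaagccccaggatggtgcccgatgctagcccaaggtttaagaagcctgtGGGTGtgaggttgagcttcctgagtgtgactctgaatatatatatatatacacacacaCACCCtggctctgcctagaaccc
Art4: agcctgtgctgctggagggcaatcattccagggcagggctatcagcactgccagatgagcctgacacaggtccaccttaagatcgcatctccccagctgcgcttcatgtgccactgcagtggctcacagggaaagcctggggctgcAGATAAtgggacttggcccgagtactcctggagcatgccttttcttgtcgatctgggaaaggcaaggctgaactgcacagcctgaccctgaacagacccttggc
In Kel the AGATAA began 56 bases before the start and the CACCC ended at the last base before it. In Rhd the AGATAA began 43 bases before the start and the GGGTG 27 bases before it. The Art4 window held 1 AGATAA, 104 bases before the start, and no CACCC. The Ackr1 window held 2 matches to CACCC, and the Aqp1 window held 3 and the Bcam window 2, and none of these 3 windows held AGATAA.

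Levels were compared between genes as CPM per kilobase of annotated exon, averaged over the 7 livers. The members were among the abundant transcripts of the organ: 10 lay above 95% of the genes tested, 23 above 90% and 27 above 80%. The highest and the lowest tested member differed by 229-fold. Slc4a1, which encodes band 3, stood highest at 885 CPM per kilobase, above 99.7% of genes tested. Cd24a, a GPI-anchored surface protein that marks immature blood cells, followed at 841. Within the Rh complex, Rhd had 278 and its partner Rhag, an ammonium transporter subunit, had 184 CPM per kilobase. The blood group protease gene Kel had 278 and Ermap, the Scianna antigen, 184 CPM per kilobase.

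In the skeleton, Gypc (glycophorin C) had 118 and Sptb (beta-spectrin) 112 CPM per kilobase. The ankyrin gene Ank1 had 58.3, and Epb42, the band 3 partner protein 4.2, had 85.6 CPM per kilobase. Both adducin genes were detected, with 55.1 for Add1 and 32.5 CPM per kilobase for Add2. Epb41 (protein 4.1), Tpm3, Dmtn (dematin), Tpm1, Mpp1 and Tmod1 (tropomodulin, the cap of the actin filament) ranged from 50.2 to 25.5. Of the channels and transporters Stom was highest at 103 CPM per kilobase, and Slc29a1, Kcnn4, Aqp1, Slc14a1 and Piezo1 ranged from 45.5 to 17.3. The lowest tested member was Bcam, the Lutheran laminin receptor, at 3.87 CPM per kilobase, above 50.3% of genes tested. Ank1, Sptb, Epb41, Tmod1, Bcam, Mpp1, Piezo1 and Slc29a1 share exon sequence with genes on the other strand. Reads there may have been left out as ambiguous or counted for either gene. The strand setting of the counting is not given in the sources used here. Add1 shares exon sequence with the microRNA gene Mir7036b on the same strand.

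Some ratios between partners varied little and others widely between livers. The ratio of Sptb to Ank1, taken within each library on the per-kilobase scale, was 1.88 and 2.05 in TAF10KO, 2.03, 1.83 and 1.92 in TAF10HET, and 1.94 and 1.89 in WT livers. All 7 ratios lay within 1.83 to 2.05. The ratio of Rhd to Rhag was 1.42 and 1.16 in TAF10KO livers, 1.78, 1.69 and 1.45 in TAF10HET livers, and 1.66 and 1.53 in WT livers. Both TAF10KO values were below all 5 others, by a small margin: 1.42 in TAF10KO replicate 1 against 1.45 in TAF10HET replicate 3. The ratio of Epb42 to Ank1 ranged from 1.204 to 2.24, with its 2 highest values, 2.24 and 2.08, in TAF10HET replicate 1 and WT replicate 1. That of Add1 to Add2 ranged from 1.46 to 2.16 and that of Tpm3 to Tpm1 from 1.003 to 1.58. For every ratio but that of Rhd to Rhag the TAF10KO values overlapped the others. How often pairs of other genes separate in this way was not tested.

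**Figure D1:**
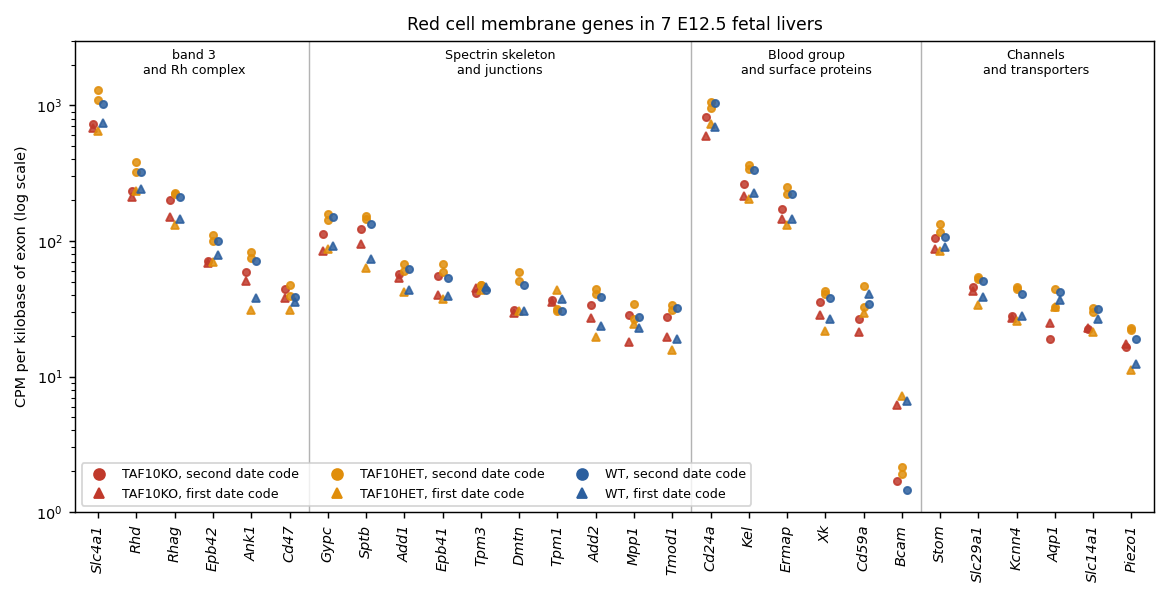
Level of each of the 28 tested members in each of the 7 livers, as CPM per kilobase of exon on a log axis, grouped by role and ordered by mean level within a role. Each point is 1 liver, coloured by genotype, with circles for the second and triangles for the first date code. Slc4a1 and Cd24a stand highest, with means of 885 and 841, and Bcam lowest with 3.87. Triangles lie below circles for most members and above them for Bcam.

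The first comparison asked how the membrane genes stood in TAF10KO livers against WT livers. No member passed the threshold: 0 of 28 were called by edgeR, beside 0.608% of all genes tested, of which 0.481% were higher and 0.127% lower in TAF10KO. Of the 28, 7 had an unadjusted p under 0.05, all lower, beside 17.9% of all genes in either direction. Those 7 were Aqp1, Cd59a, Slc14a1, Cd24a, Epb42, Rhd and Gypc. Fitted log2 differences ran from -0.85 to 0.18, with a median of -0.07, beside 0.03 over all genes tested. For 18 members the difference was smaller than 0.2 in size, and SEs ran from 0.0915 to 0.244. In whole organs, fewer cells of a type and less RNA per cell cannot be told apart.

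In the band 3 and Rh complex, 0 of 6 tested members were called and the median log2 difference was -0.15. Slc4a1 stood at 3327 and 3555 CPM in TAF10KO livers and at 3145, 6328 and 5357 CPM in TAF10HET livers, against 3614 and 4970.0 CPM in WT livers. The TAF10KO values were below both WT values but above TAF10HET replicate 1. The fitted log2 difference from WT was -0.29 (SE 0.194, adjusted p = 0.475 by edgeR). For Ank1 the values were 684 and 803 CPM in TAF10KO, 421, 1126 and 1014 CPM in TAF10HET, and 513 and 962 CPM in WT livers. The groups overlapped, and the difference from WT was 0.11 (SE 0.244, adjusted p = 0.850 by edgeR). Cd47, the signal that restrains uptake by macrophages, had 236 and 277 CPM in TAF10KO, 195, 299 and 245 CPM in TAF10HET, and 222 and 241 CPM in WT livers. It overlapped between groups, with a difference of 0.14 (SE 0.128, adjusted p = 0.589 by edgeR). Epb42 at -0.34 and Rhd at -0.32 had TAF10KO values below both WT values, and Rhag lay at -0.01.

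Among the 10 skeleton and junction genes 0 were called and the median log2 difference was -0.02. Gypc had 197 and 261 CPM in TAF10KO, 204, 368 and 334 CPM in TAF10HET, and 213 and 351 CPM in WT livers, with overlap between all groups. Its difference from WT was -0.27 (SE 0.114, adjusted p = 0.279 by edgeR). Sptb had 1155 and 1481 CPM in TAF10KO, 767, 1853 and 1752 CPM in TAF10HET, and 896 and 1632 CPM in WT livers. The TAF10KO values lay between the WT values, and the difference was 0.13 (SE 0.195, adjusted p = 0.756 by edgeR). The remaining 8 ranged from -0.31 for Dmtn to 0.11 for Add1, and for none of the 10 did the TAF10KO values all lie on 1 side of the WT values.

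Among the 6 blood group and surface genes 0 were called and the median was -0.19. Cd59a, which blocks the membrane attack complex of complement, had 38.3 and 47.8 CPM in TAF10KO livers and 53.1, 84.9 and 59.1 CPM in TAF10HET livers, against 74.2 and 62.0 CPM in WT livers. Both TAF10KO values were below all 5 others. The difference from WT was -0.68 (SE 0.218, adjusted p = 0.194 by edgeR), and within date codes it was -0.37 in the second and -0.95 in the first. Cd24a had 1525 and 2102 CPM in TAF10KO, 1869, 2735 and 2463 CPM in TAF10HET, and 1799 and 2686 CPM in WT livers. Its groups overlapped, but the TAF10KO liver was the lowest of its own date code in both cases, with -0.35 in the second and -0.24 in the first. The fitted difference was -0.30 (SE 0.104, adjusted p = 0.212 by edgeR). Kel lay at -0.20 and Ermap at -0.18, and Xk, the partner of the Kell protein, at 0.01.

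Among the 6 channel and transporter genes 0 were called and the median was -0.17. Aqp1, the water channel that carries the Colton antigen, had 65.1 and 49.7 CPM in TAF10KO livers and 85.2, 116 and 85.3 CPM in TAF10HET livers, against 96.9 and 111 CPM in WT livers. Both TAF10KO values were below all 5 others, and the groups did not overlap. Aqp1 averaged 57.4 ± 10.9 CPM in TAF10KO (SD, n = 2) and 104 ± 10.1 CPM in WT livers (SD, n = 2). Its log2 difference was the lowest of the list at -0.85 (SE 0.196, adjusted p = 0.109 by edgeR), with -1.16 within the second date code and -0.57 within the first. Its promoter, printed above, held 3 matches to CACCC, a motif present in 82.6% of members with a window and in 54.5% of genes. Any link between the motif and the Aqp1 difference was not tested.

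Slc14a1, the urea transporter that carries the Kidd antigen, had 90.6 and 90.3 CPM in TAF10KO, 85.8, 128 and 119 CPM in TAF10HET, and 106 and 127 CPM in WT livers. The TAF10KO values were below both WT values but not below TAF10HET replicate 1. Its difference from WT was -0.35 (SE 0.129, adjusted p = 0.227 by edgeR). Piezo1, the mechanically gated cation channel, had 172 and 165 CPM in TAF10KO, 111, 225 and 219 CPM in TAF10HET, and 123 and 189 CPM in WT livers. The TAF10KO values lay between the WT values, and the difference of 0.18 (SE 0.229, adjusted p = 0.722 by edgeR) was the highest of the list. Stom, the lipid raft protein stomatin, had 246 and 298 CPM in TAF10KO, 239.9, 376 and 328 CPM in TAF10HET, and 255 and 304 CPM in WT livers. Its difference of -0.04 was smaller than its SE of 0.113. Kcnn4, the calcium-activated potassium channel, lay at -0.29 and Slc29a1, a nucleoside transporter, at 0.02.

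Across the list, 7 members had both TAF10KO values below both WT values, beside 14.5% of all genes, and 0 had both above, beside 15.2%. The TAF10KO liver was below the WT liver within both date codes for 14 members, beside 30.4% of all genes, and above it within both for 2, Cd47 and Epb41, beside 34.3%. For the other 12 the sign differed between date codes. Leaving out a TAF10KO or a WT replicate leaves that arm with 1 liver, whose spread is assumed to be that of the other groups. Without TAF10KO replicate 1, 7 members were called lower, beside 3.47% of all genes, and the median was -0.30, with Sptb at -0.24 and Piezo1 at -0.30. Without TAF10KO replicate 2, 1 member, Piezo1, was called higher, beside 1.81% of all genes. Without TAF10HET replicate 1, 1 was called lower, Slc14a1, beside 2.37%. DESeq2 with the same terms called 3 members lower, which were Aqp1, Cd24a and Cd59a, beside 1.99% of the genes to which it gave an adjusted p. With embryo sex as a further term edgeR called 4 members higher, Add2, Ank1, Piezo1 and Sptb, beside 9.44% of all genes, and 3 lower, Cd24a, Epb42 and Slc14a1, beside 7.81%.

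**Figure D2:**
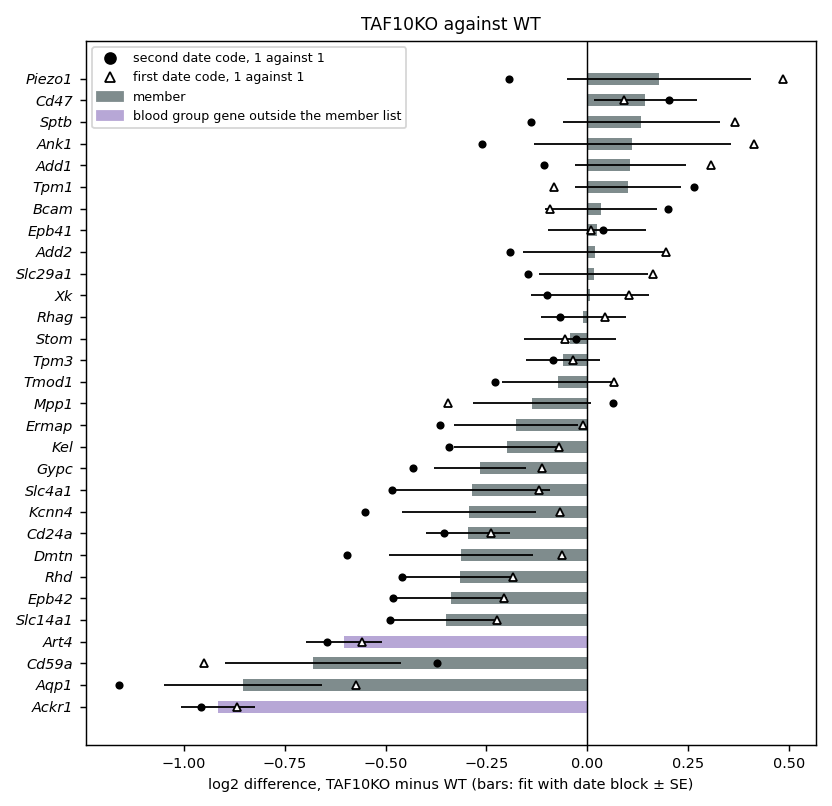
Fitted log2 difference of each tested member, TAF10KO minus WT, with bars for the fit with the date code as a block and whiskers of 1 SE. Points give the difference of 1 liver against 1 liver within the second (filled circles) and first (open triangles) date code. Grey bars run from 0.18 for Piezo1 to -0.85 for Aqp1 and none passed the threshold. The violet bars are Ackr1 (-0.91) and Art4 (-0.60), which lie outside the member list and were called.

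A wider list of 36 other red cell membrane genes was tested beside the members. In TAF10KO against WT livers 0 rose, beside 0.481% of all genes, and 2 fell, Ackr1 and Art4, beside 0.127%. The median of the list was 0.015. Ackr1, the chemokine receptor that carries the Duffy antigen, had 22.8 and 27.6 CPM in TAF10KO livers and 38.2, 55.2 and 51.8 CPM in TAF10HET livers, against 41.8 and 53.7 CPM in WT livers. Its TAF10KO values were below all 5 others. The log2 difference was -0.91 (SE 0.0916, adjusted p = 0.0129 by edgeR), with -0.96 within the second date code and -0.87 within the first. Art4, an ADP-ribosyltransferase that carries the Dombrock antigen, had 54.4 and 63.2 CPM in TAF10KO livers and 73.1, 107 and 97.9 CPM in TAF10HET livers, against 80.3 and 98.9 CPM in WT livers. The groups again did not overlap, and the log2 difference was -0.60 (SE 0.095), with -0.65 within the second date code and -0.56 within the first. Its adjusted p of 0.04996 by edgeR was just under the threshold.

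Both calls rest on the fit with the date code as a block: with group as the only term the adjusted p was 0.946 for Ackr1 and 0.99998 for Art4, the highest of ranges that start at 1.70e-11 and 4.07e-06 over all alternatives. Ackr1 missed the threshold without WT replicate 1 (adjusted p = 0.236), WT replicate 2 (0.343) or TAF10HET replicate 3 (0.0833), and Art4 missed it without any of WT replicates 1 and 2 and TAF10HET replicates 2 and 3, at adjusted p of 0.0796 to 0.671 by edgeR. In all, Ackr1 was called in 13 of 18 alternatives and Art4 in 10 of 18, so settings not named here also lost the calls. The size of the difference moved little over all alternatives, from -0.99 to -0.86 for Ackr1 and from -0.70 to -0.53 for Art4. Among the most abundant genes of the wider list were Bsg (basigin) and Slc2a1 (the glucose transporter GLUT1). In TAF10KO against WT livers Bsg lay at 0.02 and Slc2a1 at 0.39 on the log2 scale, neither of them called.

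**Figure D3:**
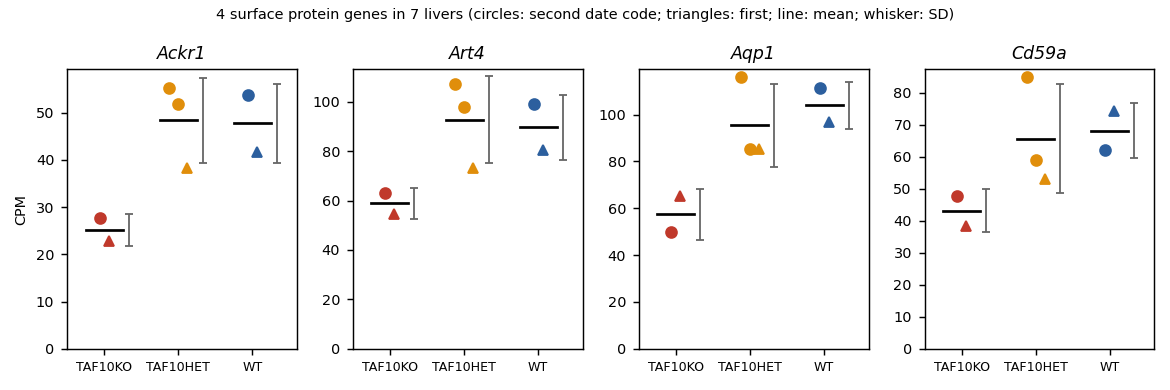
Level in CPM of Ackr1, Art4, Aqp1 and Cd59a in each liver, with TAF10KO, TAF10HET and WT from left to right. Circles are the second and triangles the first date code, the line is the group mean and the whisker its SD. In each panel the 2 TAF10KO livers lie below the other 5, and Ackr1 and Art4 passed the threshold while Aqp1 and Cd59a did not.

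TAF10HET and WT livers were compared next. No member was called by edgeR, beside 0.00633% of all genes, and 0 had an unadjusted p under 0.05, beside 3.35%. DESeq2 also called 0 members, and its share of all genes is not given here. Log2 differences ran from -0.13 for Aqp1 to 0.29 for Bcam, with a median of 0.03, beside 0.01 over all genes tested, and 27 of 28 were smaller than 0.2 in size. For 0 members did the groups fail to overlap, beside 4.33% of all genes that were higher and 4.95% lower throughout. Bcam had 22.9, 6.84 and 6.10 CPM in TAF10HET and 21.02 and 4.69 CPM in WT livers, so that its values followed the date code.

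TAF10KO and TAF10HET livers both carry EpoCre. Between them 0 of 28 members were called by edgeR, beside 1.61% of all genes, 1.15% higher and 0.456% lower. An unadjusted p under 0.05 was found for 7 members, all lower, beside 17.1% of all genes in either direction. DESeq2 called 4 lower, Aqp1, Cd24a, Dmtn and Rhd, beside 2.24% of the genes to which it gave an adjusted p. Log2 differences ran from -0.73 for Aqp1 to 0.12 for Cd47, with a median of -0.16, beside 0.0028 over all genes tested. Rhd, Aqp1 and Cd59a had TAF10KO values below all 3 TAF10HET values, beside 9.77% of all genes, and 0 had them all above, beside 10.3%. Cd59a lay at -0.58 (SE 0.204, adjusted p = 0.225 by edgeR), with -0.56 within the second date code and -0.47 within the first. Without TAF10KO replicate 1, which again leaves 1 TAF10KO liver, 8 members were called lower, beside 3.47% of all genes, and the median was -0.29. Without TAF10HET replicate 1, 2 were called lower, Epb42 and Slc4a1, beside 1.34%. In the wider list, Ackr1 at -0.87 (adjusted p = 0.00851) and Art4 at -0.59 (adjusted p = 0.0277) fell in TAF10KO livers and Aqp9 at 0.71 (adjusted p = 0.0253) rose, by edgeR. Aqp9, which carries glycerol and water, had 24.8 and 43.3 CPM in TAF10KO livers and 15.9, 27.6 and 23.3 CPM in TAF10HET livers, and these values overlapped. Each of these 3 calls was lost without WT replicate 1, without WT replicate 2, without TAF10HET replicate 3, with only the 2 groups in the fit or with no block, and those of Art4 and Aqp9 also without TAF10HET replicate 2 or with DESeq2 and no block. Over all alternatives the differences stayed between -0.95 and -0.81 for Ackr1, -0.68 and -0.51 for Art4, and 0.58 and 0.78 for Aqp9.

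The clearest differences in these genes lay between the date codes. In the second against the first date code, 21 of 28 members rose, beside 18.7% of all genes that rose, and 1 fell, beside 22.7% that fell; together 22 were called, beside 41.4%. The risers gained 0.36 to 0.87 on the log2 scale, a median of 1.47-fold, with adjusted p of 0.00164 to 0.0480 by edgeR. The median over the 28 was 0.50, beside 0.02 over all genes tested. For 17 members all 4 livers of the second code were above all 3 of the first, beside 18.8% of all genes, and for 1 they were all below, beside 23.6%.

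Of the skeleton and junction genes 8 of 10 rose, with a median of 0.56. Ank1, which ties this skeleton to band 3 and is counted here in the band 3 and Rh complex, had 803 CPM in TAF10KO, 1126 and 1014 CPM in TAF10HET and 962 CPM in WT livers of the second code, against 684, 421 and 513 CPM in the TAF10KO, TAF10HET and WT livers of the first. Every liver of the second code was above every liver of the first. The log2 difference was 0.87 (SE 0.198, adjusted p = 0.0136 by edgeR). Sptb averaged 1679.5 CPM in the second code, with a range of 1481 to 1853, and 939 CPM in the first, with a range of 767 to 1155. Its difference was 0.85 (SE 0.157, adjusted p = 0.00521 by edgeR), and the groups did not overlap.

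Tmod1 had 108 CPM in TAF10KO, 134 and 121 CPM in TAF10HET and 127 CPM in WT livers of the second code, against 77.7, 61.4 and 74.1 CPM in the TAF10KO, TAF10HET and WT livers of the first. The groups did not overlap, and the difference was 0.79 (SE 0.111, adjusted p = 0.00173 by edgeR). Add2 at 0.76, Gypc at 0.65, Epb41 at 0.57, Dmtn at 0.55, Add1 at 0.43 and Mpp1 at 0.40 also rose. The tropomyosin genes did not. Tpm1 had 238 CPM in TAF10KO, 205 and 196 CPM in TAF10HET and 198 CPM in WT livers of the second code, against 230.1, 282 and 243 CPM in the TAF10KO, TAF10HET and WT livers of the first. The codes overlapped through the TAF10KO livers, and its difference of -0.28 was not called (SE 0.101, adjusted p = 0.0612 by edgeR). Tpm3 lay between 250.4 and 290.0 CPM in all 7 livers, with a difference of -0.01 (SE 0.0714), which was 0.0017 with median-of-ratios factors.

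In the band 3 and Rh complex 5 of 6 tested genes rose. Slc4a1 averaged 5053 CPM in the second code, from 3555 to 6328, and 3362 CPM in the first, from 3145 to 3614. The codes overlapped only through the TAF10KO liver of the second code, at 3555 CPM against 3614 CPM in WT replicate 1, and the difference was 0.52 (SE 0.155, adjusted p = 0.0324 by edgeR). Rhag rose by 0.59, Rhd by 0.40 and Epb42 by 0.36, and Cd47 at 0.29 just missed the threshold (adjusted p = 0.0517 by edgeR). Among channels and transporters 4 of 6 rose, Piezo1 by 0.56, Kcnn4 by 0.50, Slc29a1 by 0.41 and Stom by 0.38. Slc14a1 at 0.28 and Aqp1 at 0.04 were not called.

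Among the blood group and surface genes 4 of 6 rose and 1 fell. Xk gained 0.62, Ermap 0.59, Kel 0.57 and Cd24a 0.50 on the log2 scale, and Cd59a at 0.19 was not called. Bcam had 5.40 CPM in TAF10KO, 6.84 and 6.10 CPM in TAF10HET and 4.69 CPM in WT livers of the second code, against 19.7, 22.9 and 21.02 CPM in the TAF10KO, TAF10HET and WT livers of the first. The gap between the codes was several times the spread within either. Bcam fell by 1.93 on the log2 scale (SE 0.108, adjusted p = 1.76e-04 by edgeR) and differed by -1.85 within TAF10KO, -1.81 within TAF10HET and -2.15 within WT livers. It is the least abundant member tested, with at least 101 counts in each library.

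The direction by date code held in each genotype for most members: 21 were higher in the second code within all 3 genotypes and 1, Bcam, was lower within all 3. The median difference was 0.23 within TAF10KO, 0.71 within TAF10HET and 0.49 within WT livers. Of the 3 genotypes the difference was smallest in TAF10KO for 21 members and largest in TAF10HET for 25. The shares of all genes for these counts, and for the 21 higher within all 3 genotypes, were not taken. On the first principal component of all genes, TAF10KO livers stood at -46.7 in the first code and 23.2 in the second. WT livers stood at -48.4 and 52.9, and TAF10HET livers at -71.2 against 39.6 and 50.5. The gap between codes had the same order of genotypes on that component. With the date code as the only term, 22 members were called, beside 35.1% of all genes. Add2, Bcam, Epb41, Gypc, Kel, Rhag, Sptb, Tmod1 and Xk were called in all 17 alternatives, while the other 13 lost the call in some. Without WT replicate 1 the count was 9, beside 19.6% of all genes, and without WT replicate 2 it was 10, beside 19.3%. Without TAF10HET replicate 1 it was 14, beside 33% of all genes, with a median of 0.30. In the wider list 19 of 36 rose, beside 18.7% of all genes, and 6 fell, beside 22.7%, with a median of 0.22. Among them were Smim1, the Vel antigen, at 0.74, and Tpm4, a tropomyosin of non-muscle cells, at -0.76. With the date code as the only term 16 of the 36 were called, beside 35.1% of all genes.

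**Figure D4:**
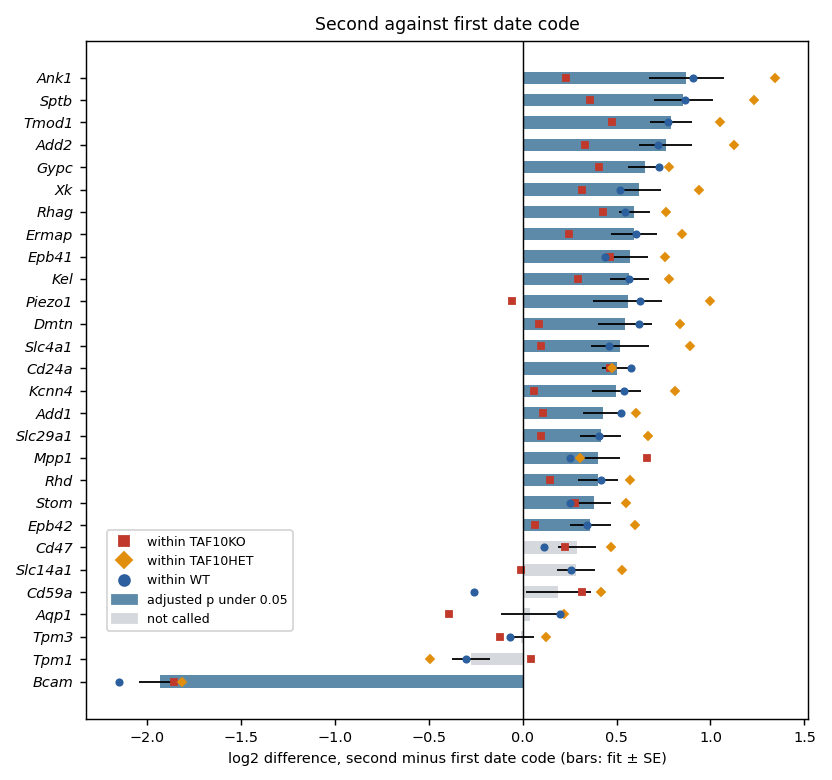
Log2 difference of each tested member, second minus first date code. Bars are the fit over all 7 livers with whiskers of 1 SE, blue where the adjusted p was under 0.05 and grey where it was not. Squares, diamonds and circles give the difference within TAF10KO, TAF10HET and WT. Bars run from 0.87 for Ank1 to -1.93 for Bcam, and for 21 members the TAF10KO square is the lowest of the 3 points. The gap between codes was also smallest in TAF10KO on the first principal component of all genes.

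Whether the genotype difference itself changed with the date code was fitted as an interaction, a test chosen after the values were seen. This fit leaves 1 residual degree of freedom, the spread between TAF10HET replicates 2 and 3, so its p-values assume that the other groups vary like these 2 livers. For TAF10KO against WT 2 of 28 members were called, beside 1.15% of all genes. Ank1 differed from WT by -0.26 within the second date code and by 0.41 within the first, a change of -0.67 (adjusted p = 0.0376 by edgeR). Piezo1 differed by -0.19 within the second and by 0.49 within the first, a change of -0.68 (adjusted p = 0.0217 by edgeR). For both, TAF10KO was below WT in the second code and above it in the first.

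For TAF10KO against TAF10HET 18 of 28 members were called, beside 15.4% of all genes, 17 with a lower difference in the second code and Tpm1 with a higher one. Ank1 had the largest change: TAF10KO differed from TAF10HET by -0.41 within the second code and by 0.70 within the first. For TAF10HET against WT 0 of 28 were called by edgeR, beside 0.646% of all genes, and 13 had an unadjusted p under 0.05, beside 11.5%. TAF10HET livers of the 2 date codes carried different alleles. Embryo sex also differed by date code, with a male TAF10KO liver in the second and a female one in the first, female TAF10HET livers in the second and a male one in the first, and females in both for WT. In these interactions the date code cannot be told apart from sex, nor, for TAF10HET, from the allele.

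Markers of red cell stages and of other liver cells moved with the same groupings. Between date codes, 5 of 9 erythroid markers rose with a median of 0.56, and their summed level was 29117 to 41193 CPM in the second and 19418 to 31917 CPM in the first code. The summed level of the 29 members was 15283 to 21868 CPM in the second and 12085 to 13171 CPM in the first. All 3 embryonic globin genes and 3 of 4 early progenitor markers rose, 1 of 6 megakaryocyte markers and 2 of 5 neutrophil markers rose, and 4 of 6 macrophage markers fell. Over all genes 18.7% rose and 22.7% fell. The date codes overlapped for every embryonic globin. With the date code as the only term, 0 embryonic globins, 0 megakaryocyte, 0 neutrophil and 1 macrophage marker were called, and the other lists kept their counts. Mesenchymal markers fell in 5 of 5 cases with a median of -2.49, and summed to 125 to 227 CPM in the second against 947 to 1734 CPM in the first code. Endothelial markers fell in 6 of 6 cases, with sums of 156 to 186 CPM in the second against 301 to 422 CPM in the first code. Hepatocyte markers fell in 5 of 7 cases, with sums of 12181.5 to 15941 CPM in the second against 17092 to 19473 CPM in the first code. No marker gene was at 0 in all libraries, and the part of these shifts in the membrane gene differences was not tested.

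In TAF10KO against WT livers, 0 of 9 erythroid markers were called and their median was -0.25. Their summed level was 19418 and 29117 CPM in TAF10KO livers, against 24434 and 37861 CPM in WT livers. Of the embryonic globins, made by the primitive red cells of the yolk sac, 2 of 3 fell. Hbb-y fell by 0.98 (SE 0.127, adjusted p = 0.0300 by edgeR) and Hba-x by 1.90 (SE 0.275, adjusted p = 0.04996 by edgeR). The value for Hba-x was just under the threshold, and neither gene was called with group as the only term. The list summed to 1372 and 1838 CPM in TAF10KO, against 2487 and 4197 CPM in WT livers. Of 6 endothelial markers 1 was called, Pecam1, which rose by 0.64 (SE 0.0943, adjusted p = 0.0438 by edgeR). It was not called with group as the only term. The endothelial median was 0.39, and Lyve1, at -0.59, was the 1 marker of that list below 0. No gene was called in the other lists. Their medians were 0.14 for early progenitor, -0.26 for hepatocyte, -0.43 for macrophage, 0.23 for megakaryocyte, 0.56 for mesenchymal and 0.69 for neutrophil markers. Their part in the membrane gene values was not tested. Against TAF10HET livers, all 3 embryonic globins, 2 of 9 erythroid markers and 1 of 6 macrophage markers fell and 2 of 6 endothelial and 2 of 5 neutrophil markers rose. In TAF10HET against WT livers 1 marker was called, the adult beta-globin gene Hbb-bt, which was higher. Hbb-bt averaged 5098 CPM in TAF10HET, 854 CPM in TAF10KO and 830 CPM in WT livers. It was also the lowest erythroid marker in TAF10KO against TAF10HET livers, at -2.68, with TAF10KO near the WT level. Hbb-bt had 1072 and 636 CPM in TAF10KO, 4967, 5411 and 4915 CPM in TAF10HET, and 967 and 693 CPM in WT livers. Only the TAF10HET livers carry a wt allele of Taf10. For this gene the TAF10HET genotype cannot be told apart from a difference between the chromosomes that carry these alleles, which was not tested.

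**Figure D5:**
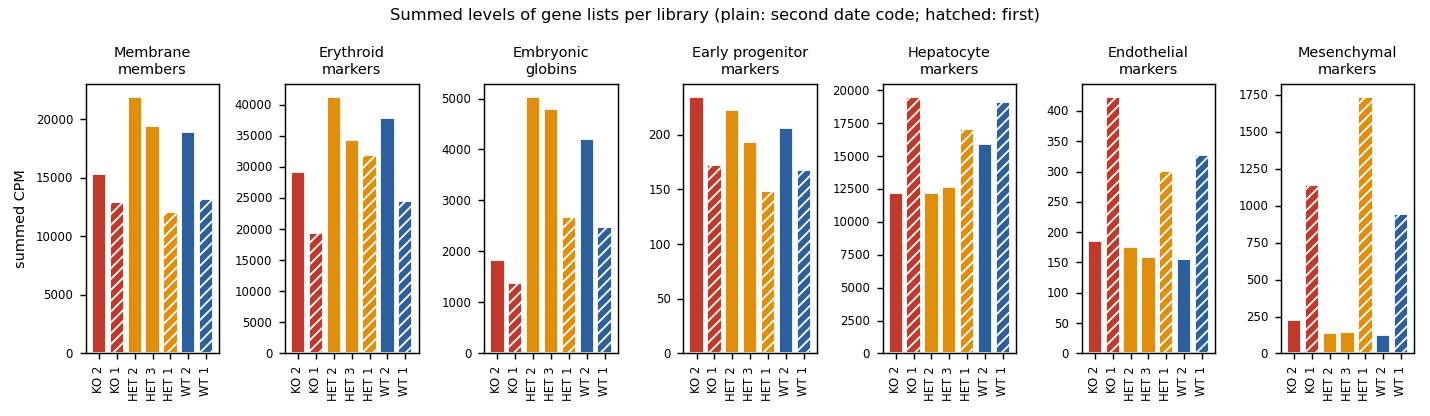
Summed CPM of the membrane members and of 6 marker lists in each liver, with TAF10KO, TAF10HET and WT from left to right, plain bars for the second and hatched bars for the first date code. All axes start at 0. The members sum to 15283 or more in the 4 livers of the second code and to 13171 or less in the 3 of the first, whereas mesenchymal markers sum to 227 or less and to 947 or more.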

How the data were processed

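RNA was sequenced from 7 fetal livers in 3 genotype groups taken from the labels. The authors deposited raw counts of reads for each Ensembl gene; TopHat2 2.0.8, DESeq2 and build mm10 are named in the submitters' processing notes, but the counting program and strand setting are not stated in them. Reads in no gene (6.81% to 10.1% of all), ambiguous reads (3.98% to 5.94%) and reads aligned to several places (14.1% to 22.25%) were left out. Symbols, positions and exon lengths came from GENCODE M21, which matched 37693 of 39017 identifiers, with 0.198% of counts unmatched. The members, role groups, wider list and marker lists were chosen with earlier results of these data known.

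Genes were fitted in R 4.3.3 with edgeR 4.0.16 (filterByExpr by group, TMM factors, robust quasi-likelihood F test, two-sided) on all 7 libraries with date code and group as terms. P-values were adjusted over 15800 genes by Benjamini-Hochberg at a threshold of 0.05. CPM used TMM factors and log2 CPM a prior count of 2; an SE is the absolute log2 difference over the square root of F. Values within a date code are differences of log2 CPM with no test. The code was kept as a block because deviations from group means correlated at 0.40 to 0.74 in 8 pairs of libraries that share it and at -0.74 to -0.40 in 8 pairs that do not; in a group of 2 such deviations mirror each other by construction. The biological coefficient of variation was 13.4% with the block and 33.9% without. No libraries were copies of each other by a chi-square comparison. Each library is 1 liver, and nothing in the labels says which livers are littermates, so p-values measure the spread between these livers.

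Named in full were members called between genotypes, the most abundant of each role, and the 3 largest rises and falls in TAF10KO against WT and between date codes; of the wider list, the called genes and otherwise the 3 most abundant, of which 1 is not reported here; Smim1, Tpm4 and the other members' values were added after they were seen. Embryos with Xist under 10 CPM were taken as male. The alternatives were other scaling factors, globin genes out of the totals, DESeq2 1.42.0, other filters, no block, a fit on the compared groups alone, dispersions without robust estimation, embryo sex as a term and each library left out; DESeq2 without the block and the interaction with the date code were added after the values were seen. The scripts were tested on simulated counts. Promoter windows came from RefSeq.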

Additional observations from a re-analysis of the deposited data

Results flagged for a closer look

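The genotype difference changed between date codes for 20 results, tested as an interaction that was chosen after the values were seen. It has 1 residual degree of freedom, and no cause was tested. Each value is the difference within the second date code minus that within the first, on the log2 scale. For TAF10KO against WT it was -0.67 for Ank1 and -0.68 for Piezo1, 2 of 28 members tested. For TAF10KO against TAF10HET it was below 0 for 17 of 18 members. In the band 3 and Rh complex it was -0.80 for Slc4a1, -1.12 for Ank1, -0.53 for Epb42 and -0.33 for Rhag. In the skeleton it was -0.87 for Sptb, -0.79 for Add2, -0.75 for Dmtn, -0.58 for Tmod1, -0.50 for Add1 and -0.38 for Gypc. Tpm1, a tropomyosin gene, stood at 0.54. Among surface proteins it was -0.62 for Xk, -0.60 for Ermap and -0.49 for Kel. Among channels and transporters it was -1.06 for Piezo1, -0.75 for Kcnn4, -0.57 for Slc29a1 and -0.53 for Slc14a1. The allele of the TAF10HET livers and the sex of the TAF10KO and TAF10HET livers differ between the date codes, so these cannot be told apart from the date code: sex in both comparisons and the allele in the second.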

How the results depend on the processing

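The counts of called members between genotypes were 0 in the fit described and moved with the processing; no cause was tested. For TAF10KO against WT, 3 were called with DESeq2, 3 with no filter on low counts, 2 with only the groups compared, 7 with embryo sex as a term and 1 with DESeq2 and no block. For TAF10KO against TAF10HET, 9 were called with embryo sex, 5 with no filter and 4 with DESeq2. With no replicate block the counts were 0 for all 3 genotype comparisons and 22 for the date code. Leaving out 1 library gave 0 to 7 called members for TAF10KO against WT, 0 to 8 for TAF10KO against TAF10HET, 0 for TAF10HET against WT and 9 to 23 for the date code; the medians ranged from -0.30 to -0.022, -0.29 to -0.043, -0.046 to 0.15 and 0.30 to 0.56. Other settings gave 19 to 25 calls for the date code. Calls over all genes moved with the settings too, so the counts in this paragraph alone do not set the members apart from other genes.

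The sign turned for 4 genes, none of them called there. Stom in TAF10KO against WT was 0.029 with embryo sex and 0.036 without WT replicate 1, with a range of -0.13 to 0.036 over libraries left out. Piezo1 and Sptb were -0.30 and -0.24 without TAF10KO replicate 1 and ranged up to 0.56 and 0.43. Tpm3 by date code was 0.0017 with median-of-ratios factors, 0.0014 with DESeq2, 0.0085 with no replicate block, 0.018 with DESeq2 and no block, and 0.0043, 0.0065 and 0.023 without TAF10KO replicate 1, TAF10KO replicate 2 or WT replicate 2, from a low of -0.098. Over all genes the TAF10KO against WT calls, 96 in the fit described, were 589 with DESeq2, 1399 with no filter, 553 with only the groups compared, 2725 with embryo sex, 53 with non-robust dispersions and 0 with no block. For TAF10KO against TAF10HET, 254 became 690, 1498, 26 and 2743 under the first 4 of these and 0 with no block. Bcam, with 101 counts or more per library, is the member most limited by depth.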
